A study of Astyanax mexicanus with 6 samples.

Results

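In liver of the Mexican tetra, Astyanax mexicanus, 56 of the 27420 genes counted were raised to a similar level in both cave populations over the river population. A gene belonged to the group when the lowest of the 4 cave libraries had at least 2 CPM, a read count scaled to library size, and at least 3 times the CPM of the higher Surface library, and when the means of Pachon and Tinaja differed by less than 2-fold. These conditions were set on the same counts that are described here, so the distance between caves and Surface is a description of the choice and carries no test of its own. Library sizes were adjusted by TMM, a method that assumes most genes do not change. Reads were not divided by transcript length, so the rank of a gene on CPM reflects length as well as abundance.

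Liver RNA was sequenced from 3 populations with 2 libraries each. Surface is the river form with eyes, and Pachon and Tinaja are eyeless, pale forms named after their caves. All 6 libraries came from polyA RNA of liver tissue, with no treatment named. The sources used here do not give sex, age, feeding or the number of fish per library. The libraries of a population may be technical repeats, and p-values then reflect technical spread alone. Library totals ran from 22168622 to 29521610 counts, and the top gene of a library took between 4.1% of its counts, in Pachon 1, and 15.8%, in Tinaja 2.

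The liver of fish stores fat and glycogen, makes most plasma proteins and lipoproteins, and controls the release of glucose during fasting. Cave populations of this species live on scarce and irregular food and are known for large fat stores, fatty livers and resistance to starvation. Pachon and Tinaja are often studied together because they share cave traits, and a transcript raised alike in both livers is one way to compare them for shared change. The count table lists Ensembl gene identifiers without names, and 0 of its identifiers matched a symbol in the reference used here. The function of the 56 genes is therefore not described, the tissue label and the presence of other cell types could not be checked against marker genes, and 2 genes are given by identifier, the others by their rank on mean CPM over the 4 cave libraries.

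The group spanned a wide range of read abundance. Mean cave CPM ran from 2.45 to 8885.1 with a median of 14.8: 3 genes were at 1000 CPM or more, 6 between 100 and 1000, 26 between 10 and 100, and 21 below 10. Mean Surface CPM ran from 0 to 87.5 with a median of 1.15, and 23 genes stayed under 1 CPM in both Surface libraries. The ratio of the lowest cave library to the highest Surface library was below 4 in 25 genes, from 4 to 8 in 12, from 8 to 16 in 12, and 32 or more in the remaining 7, with none between 16 and 32. The sparsest cave value of the group rested on 37 reads, and the median gene had at least 260 reads in each cave library. In bulk tissue, fewer cells of a type and less RNA per cell cannot be told apart.

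**Figure D1:**
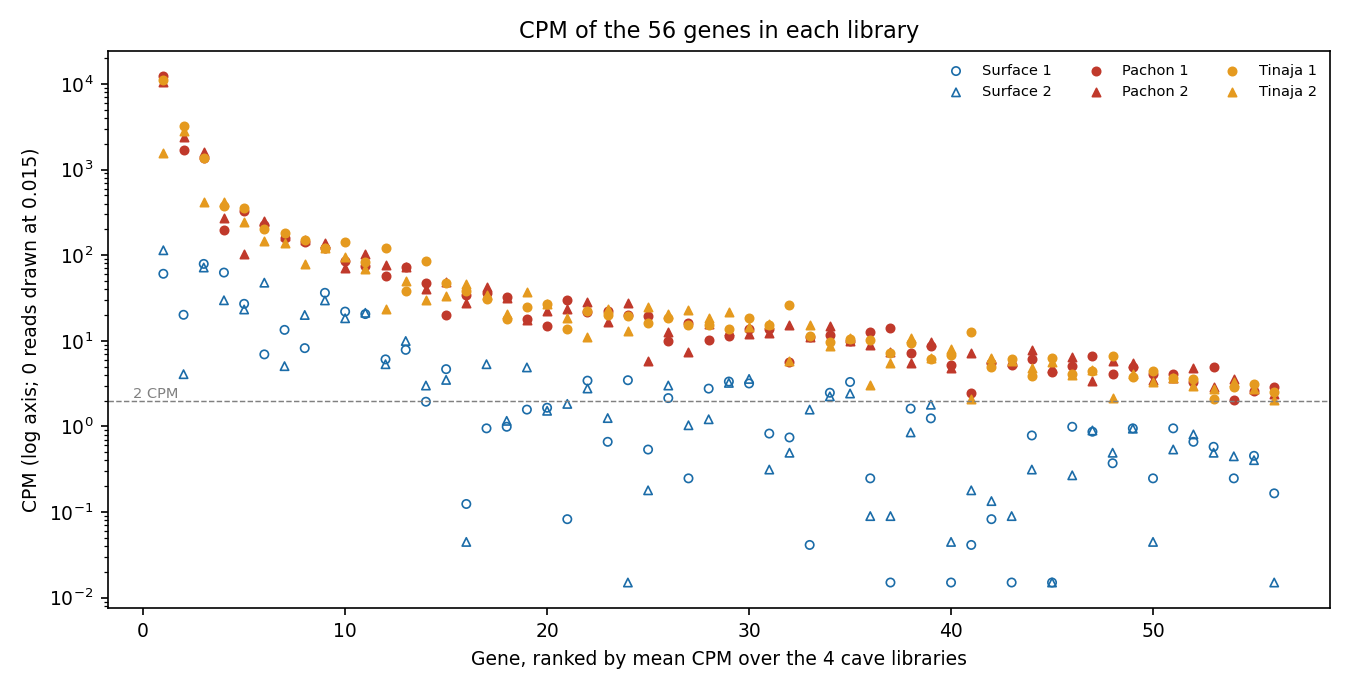
CPM of each of the 56 genes in each of the 6 libraries, on a log axis, with genes ordered by mean CPM over the 4 cave libraries; circles are replicate 1, triangles replicate 2, open symbols Surface and filled symbols the caves. Every filled symbol of a gene lies above its open symbols, as the rule requires, and the highest gene has 1 low cave point, Tinaja 2 at 1556.2 CPM.

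The genes nearest the limits of the rule had these values. On the ratio of the lowest cave to the highest Surface library, the 3 genes nearest the limit inside had 3.02, 3.11 and 3.12, and the 3 nearest outside had 2.96, 2.95 and 2.95. On the lowest cave CPM the nearest inside were at 2.01, 2.02 and 2.06 and the nearest outside at 1.7, 1.6 and 1.59. On the ratio between the cave means the nearest inside were at 1.78, 1.74 and 1.74 and the nearest outside at 2.02, 2.07 and 2.11. Of the 76 genes that met the conditions against Surface, 20 were left out because the caves differed by 2-fold or more, 9 with the higher mean in Pachon and 11 in Tinaja. The mirrored rule, with the lowest Surface library at least 2 CPM and at least 3 times the highest cave library and the cave means within 2-fold, found 78 genes.

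**Figure D2:**
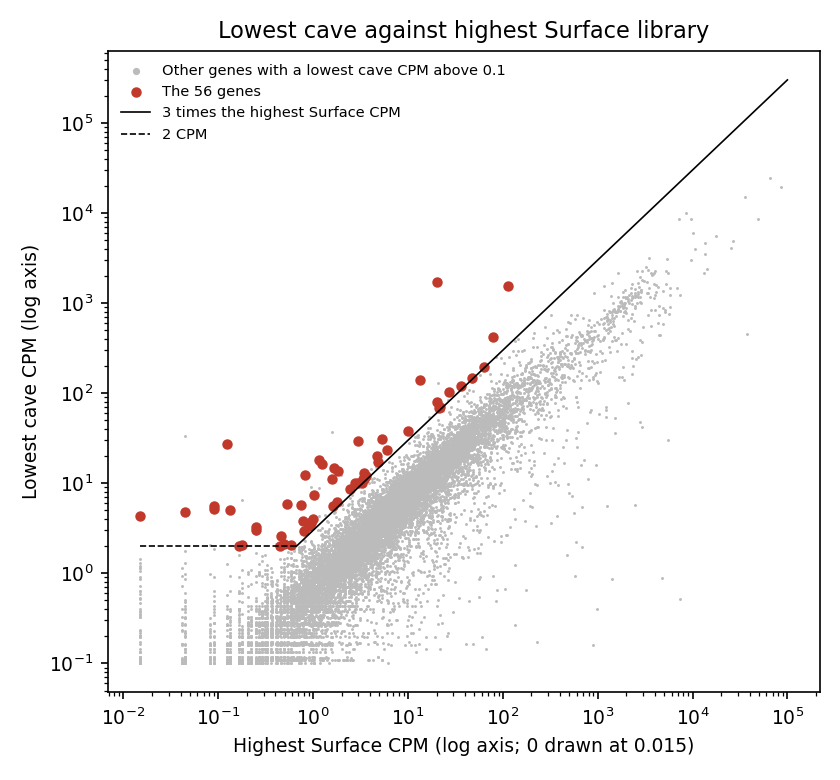
Lowest CPM of the 4 cave libraries against the highest CPM of the 2 Surface libraries for each gene, on log axes; red points are the 56 genes, grey points the other genes whose lowest cave CPM was above 0.1, and the lines mark 3 times the Surface value and 2 CPM. The grey points above both lines are the 20 genes whose cave means differed by 2-fold or more.

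ENSAMXG00000025561 had the highest mean cave CPM of the group. The Pachon libraries held 12353.1 and 10425.6 CPM, Tinaja 1 held 11205.4 and Tinaja 2 held 1556.2, with 60.6 in Surface 1 and 114 in Surface 2. Tinaja 1 lay between the Pachon libraries, while Tinaja 2 was 7.2-fold below Tinaja 1 and still 13.6 times the higher Surface library. The Pachon and Tinaja means differed by 1.78-fold, which placed the gene closest of the 56 to the 2-fold limit between the caves. Its log2 fold change for Pachon over Tinaja was 0.82 with an approximate 95% interval from -1.21 to 2.86 (edgeR adjusted p = 0.57), and it was 0.01 without Tinaja 2 and 2.88 without Tinaja 1, where the edgeR adjusted p was 0.0438. The distance between the cave means of this gene thus changed with the Tinaja library that was kept.

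ENSAMXG00000036698 had the highest ratio of mean cave to mean Surface CPM among genes of the group with at least 10 reads in Surface. Pachon 1 held 1714 CPM, Pachon 2 held 2399, Tinaja 1 held 3194.8 and Tinaja 2 held 2843.3, with 20.1 in Surface 1 and 4.07 in Surface 2. Both Tinaja libraries were above both Pachon libraries, and the Surface libraries differed from each other by 4.93-fold. The mean over the caves was 210 times the mean over Surface. By fit, the log2 fold change was 7.4 ± 0.86 in Pachon (SE, edgeR adjusted p = 0.00331) and 7.97 ± 0.89 in Tinaja (SE, edgeR adjusted p = 0.00297). Over the alternatives the size of these changes followed the Surface library that was kept: in Pachon the value was 6.66 without Surface 2 and 8.97 without Surface 1, and in Tinaja 7.24 and 9.54. This gene was picked for its distance to Surface, by the rule and by the ratio. The p-values against Surface therefore follow from the choice and carry no test of their own.

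The third gene by reads had 1376.7 CPM in Pachon 1, 1588.7 in Pachon 2, 1378.5 in Tinaja 1 and 421 in Tinaja 2, with 79 in Surface 1 and 71.7 in Surface 2. As with the first gene, Tinaja 1 lay between the Pachon libraries and Tinaja 2 was lower, here by 3.27-fold. Its log2 fold change for Pachon over Tinaja was 0.71 ± 0.51 (SE, edgeR adjusted p = 0.411).

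The 3 highest genes carried most of the reads of the group in every cave library. Summed over all 56 genes, Pachon 1 reached 17443.9 CPM, Pachon 2 16385.5, Tinaja 1 18180 and Tinaja 2 6776.7, while Surface 1 reached 419.8 and Surface 2 453.6. Both Surface libraries were far below every cave library, and Tinaja 2 stood apart from the other 3 cave libraries. Without the first gene the sums were 5090.8 in Pachon 1, 5959.9 in Pachon 2, 6974.5 in Tinaja 1 and 5220.4 in Tinaja 2, with 359.3 in Surface 1 and 339.1 in Surface 2. The gap between the Tinaja libraries was then smaller than the distance of either to Surface, and Tinaja 2 lay between the Pachon libraries. The 53 genes below the top 3 together had 1986.2 CPM ± 19.7 in Pachon, 7.59 times the Surface sum of 261.8 ± 2.2, and 2178.5 ± 315 in Tinaja, 8.32 times that sum (SD, n = 2 each). The first gene alone took 70.8% and 63.6% of the group's CPM in Pachon 1 and 2, 61.6% in Tinaja 1 and 23% in Tinaja 2, against 14.4% and 25.2% in Surface 1 and 2.

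**Figure D3:**
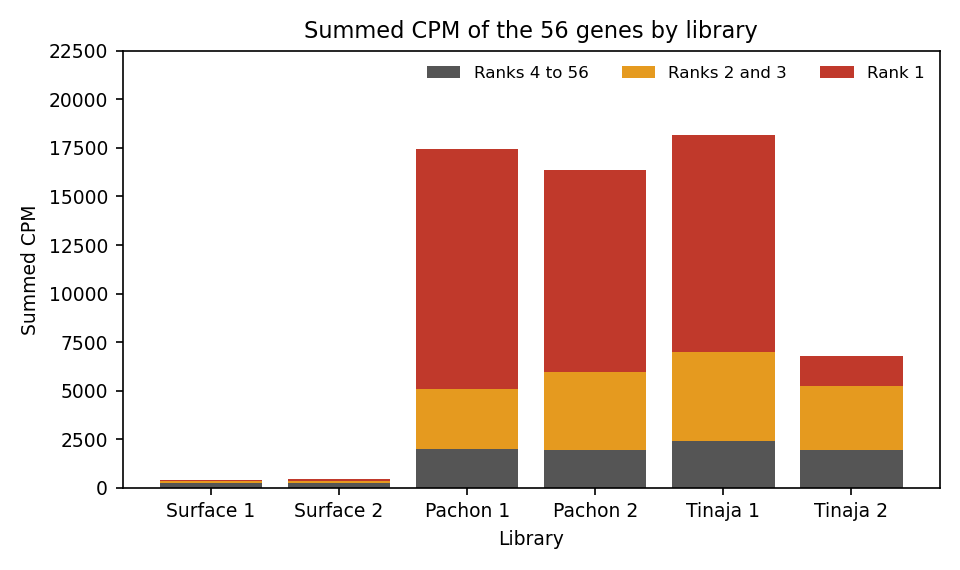
Summed CPM of the 56 genes in each library, stacked from the 53 genes of ranks 4 to 56, ranks 2 and 3, and rank 1, with 1 bar per library and no error bar. The lower segment is of similar height in all 4 cave libraries, between 1955.8 and 2401.2 CPM, while the top segment is short in Tinaja 2. The rule holds the cave means of each gene within 2-fold.

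For 10 of the 56 genes at most 10 Surface reads were counted, so that their distance to Surface is known only within wide counting limits. The gene at rank 45 had 0 reads in both Surface libraries and 4.31, 4.82, 6.23 and 5.58 CPM in Pachon 1, Pachon 2, Tinaja 1 and Tinaja 2. Against a floor of 3 reads over both Surface libraries it was at least 71.3-fold higher in Pachon and at least 92.6-fold higher in Tinaja. The gene at rank 40 had 1 Surface read and 638 reads over the 4 cave libraries, a ratio of 275 with an exact 95% counting interval from 49.2 to 10891.8. Ranks 37 and 43 had 2 Surface reads each, with ratios of 208 (57.5 to 1721.8) and 132 (36.4 to 1092.9). The gene at rank 16 combined 4 Surface reads with 3751 cave reads, a ratio of 405 (158 to 1486). Its cave values of 33.8, 27.4, 37.9 and 45.9 CPM in the same order were all within 2-fold of each other, while Surface 1 had 0.124 CPM and Surface 2 had 0.0447. Floors and intervals reflect counting error alone, because reads were pooled over libraries and the spread between libraries was left out. PCR copies of a molecule are counted as separate reads, so the counting error itself may be larger.

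All 56 genes passed the filter on low counts, as they had to with at least 2 CPM in 4 libraries. The quasi-likelihood test of edgeR, adjusted over the 15282 genes tested, called 51 of them higher in Pachon than in Surface (an adjusted p below 0.05), where 8.8% of all tested genes were called higher. It called 53 higher in Tinaja, against 8.12% of all tested genes, and 54 higher for the mean of both caves, against 8.23%. Because the rule chose genes on this very distance, these shares are printed for scale only. The median log2 fold change of the 56 was 3.52 in Pachon (median SE 0.45) and 3.34 in Tinaja (median SE 0.46), against -0.01 and 0 over all tested genes. Both medians kept these values with the gene of 0 Surface reads set to its bound. Both comparisons share the Surface libraries. Of the 541 genes that the test called higher in both caves, the 51 called here made up 9.43%.

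A wide gap between libraries of at least 1 population was seen in each of the 5 genes that were not called in both caves. Such gaps were not limited to these genes. Rank 21, called in both caves, had 0.0824 CPM in Surface 1 and 1.83 in Surface 2. At rank 6 the Surface libraries had 6.93 and 47.7 CPM and the cave libraries 148 to 249, with an edgeR adjusted p of 0.0653 in Pachon and 0.0913 in Tinaja. At rank 24 Surface had 3.46 and 0 CPM and the caves 13.1 to 27.5, with an edgeR adjusted p of 0.105 and 0.146. At rank 33 Surface had 0.0412 and 1.57 CPM and the caves 11 to 15.3. This gene was called in Tinaja (edgeR adjusted p = 0.0498) and not in Pachon (edgeR adjusted p = 0.0559). At ranks 32 and 41 it was the cave libraries that spread. Rank 32 had 5.71 CPM in Pachon 1 and 15.3 in Pachon 2, with 26.1 in Tinaja 1 and 5.85 in Tinaja 2. Rank 41 had 2.47 in Pachon 1 and 7.28 in Pachon 2, with 12.5 in Tinaja 1 and 2.08 in Tinaja 2. The tests of these genes gave an edgeR adjusted p of 0.0538 and 0.0635 in Pachon and 0.0406 and 0.0505 in Tinaja.

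Among the 56 were genes with large gaps between libraries of the same population. On the log2 scale after adding 0.5 CPM, Surface 1 and 2 were more than 2-fold apart in 11 of the 56 (19.6%), against 5.05% of all tested genes. Pachon 1 and 2 were that far apart in 6 (10.7%, against 2.98%) and Tinaja 1 and 2 in 8 (14.3%, against 4.42%). The median difference was 0.34 in Surface, 0.3 in Pachon and 0.3 in Tinaja, against 0.26, 0.21 and 0.26 over all tested genes. All tested genes were not matched to the 56 on read abundance, so the larger shares and medians are not read as traits of the 56. In Surface 4 of the 11 were higher in replicate 1 and 7 in replicate 2, and in Pachon 3 of the 6 were higher in each. In Tinaja all 8, at ranks 1, 3, 12, 14, 32, 36, 41 and 48, were higher in Tinaja 1. The gap was 5.23-fold at rank 12, with 122 and 23.3 CPM, 2.86-fold at rank 14, with 84.6 and 29.6 CPM, and 6.01-fold at rank 41. Tinaja 2 was the lowest of the 4 cave libraries for 19 of the 56 genes, Pachon 1 for 14, Pachon 2 for 13 and Tinaja 1 for 10. It was the highest for 16, against 9 in Pachon 1, 17 in Pachon 2 and 14 in Tinaja 1, and of all 56 genes 29 were higher in Tinaja 1 and 27 in Tinaja 2. The direction of the gaps and the lowest and highest cave library were not counted over all tested genes. They are therefore not read as traits of the 56 either. Tinaja 2 was also the library whose most abundant gene took the largest share of counts, 15.8%, and its part in these values was not tested.

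Between the caves the means were bound by the rule to lie within 2-fold. The larger cave mean was 1.01 to 1.78 times the smaller, with a median of 1.38, and 39 of the 56 genes were within 1.5-fold. Pachon had the higher mean in 27 genes and Tinaja in 29. The libraries of the 2 caves overlapped in 26 genes and did not overlap in the other 30 (53.6%, against 60.9% of all tested genes), of which 13 were higher in Pachon and 17 in Tinaja. The edgeR test called 1 gene of the 56 different between the caves, against 9.22% of all tested genes, and 7 (12.5%, against 27.6% of all tested genes) had an unadjusted p below 0.05. The rule limits all 3 of these counts, so nothing is read from them. The called gene, at rank 18, had 32.4 CPM in Pachon 1, 31.5 in Pachon 2, 18.1 in Tinaja 1 and 20.5 in Tinaja 2, with 0.989 in Surface 1 and 1.16 in Surface 2. Its replicates lay close together in all 3 populations, and the log2 fold change of Pachon over Tinaja was 0.71 ± 0.17 (SE, edgeR adjusted p = 0.0483). Leaving out each of the 6 libraries in turn ended the call every time, at an edgeR adjusted p of 0.0614 to 0.19.

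A missed threshold does not show that the caves were alike. The approximate 95% interval of the log2 fold change between the caves stayed within -1 and 1 for 18 of the 56 genes (32.1%). That is within 2-fold either way, and 38.5% of all tested genes met the same limit. The rule had already held the cave means of the 56 within 2-fold, so nothing is read from the difference between these shares. For the other 38 the data allow a difference of 2-fold or more, although the means were closer than that. The widest intervals reached -2.95 at rank 41 and 3.25 at rank 24. At rank 9, chosen as an example of a close match, the libraries held 120 CPM in Pachon 1, 137 in Pachon 2, 121 in each of Tinaja 1 and 2, 36.3 in Surface 1 and 29.6 in Surface 2. There the difference between the caves was 0.07 on the log2 scale, with an interval from -0.46 to 0.6. The gene at rank 42, a second example, had 5.48 CPM in Pachon 1, 6.07 in Pachon 2, 5 in Tinaja 1 and 6.29 in Tinaja 2, against 0.0824 in Surface 1 and 0.134 in Surface 2, with a difference of 0.02 and an interval from -0.53 to 0.57.

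**Figure D4:**
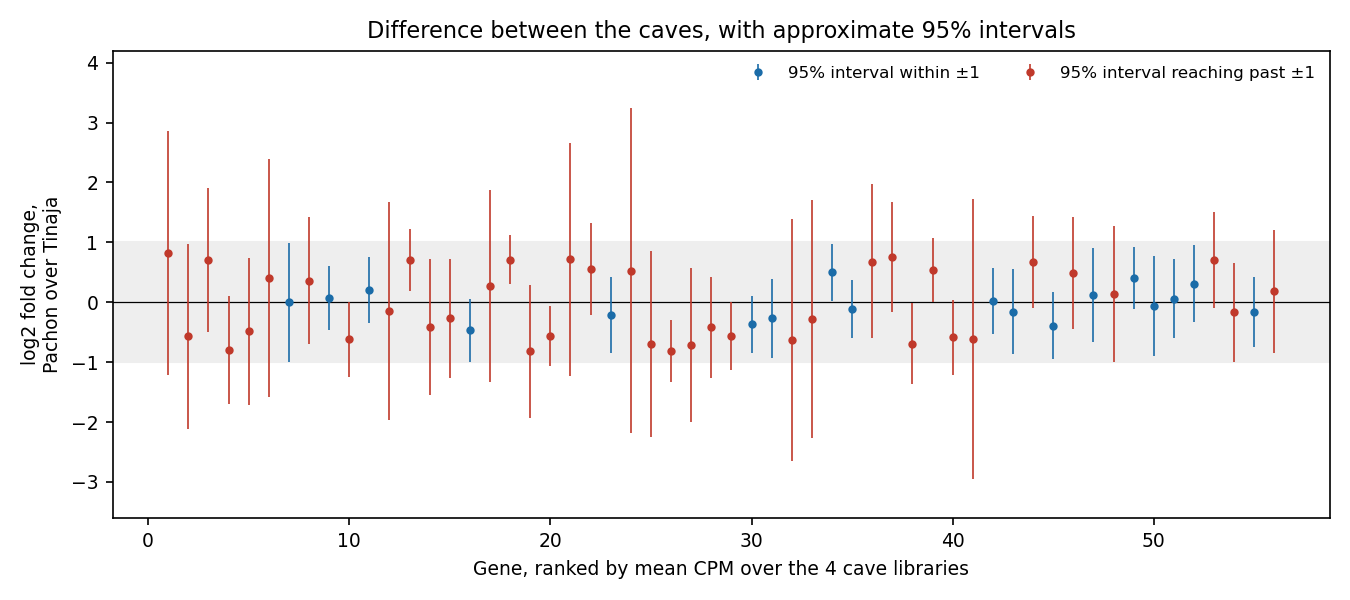
Log2 fold change of Pachon over Tinaja for each of the 56 genes, ordered by mean cave CPM, with approximate 95% intervals from the edgeR fit; the grey band marks -1 to 1. The points lie inside the band by the rule, and 18 intervals, drawn in blue, stay inside it.

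The rule was also applied 6 times, each time without 1 library, and the genes so chosen were read in the library left out. The values of a left-out cave library were set against the same Surface libraries that had chosen the genes as low in Surface, and the shares over all tested genes are not limited to genes low in Surface, so these values describe the spread between libraries and are no independent test. Without Tinaja 1 it chose 60 genes. In Tinaja 1 itself 50 of them (83.3%) had at least 2 CPM and at least 3 times both Surface libraries, against 2.79% of all tested genes, and all 60 were above both Surface libraries. Without Pachon 1 it chose 66, of which 55 (83.3%) met the limit in Pachon 1, against 2.75% of all tested genes, and all 66 were above Surface. Without Pachon 2 it chose 82, of which 60 (73.2%) met the limit there, against 3.09%, and 81 were above Surface. Without Tinaja 2 it chose 107, of which 61 (57%) met the limit in Tinaja 2, against 3.27%, and 106 were above Surface. The share of all tested genes above both Surface libraries was not counted, so nothing is read from the counts above Surface. The median gene so chosen stood 6.13 times above the higher Surface library in Tinaja 1, 5.68 in Pachon 1, 5.85 in Pachon 2 and 3.92 in Tinaja 2.

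The Surface libraries limited the group in the same manner. Without Surface 1 the rule chose 105 genes and without Surface 2 it chose 100. Here the cave values had chosen the genes. The lowest cave library was at least 3 times the left-out Surface library in 56 of each, which are the 56 genes described here by construction. Among the 9379 tested genes with at least 2 CPM in every cave library, 1.43% met that limit for Surface 1 and 1.43% for Surface 2. The left-out library was below every cave library for 100 of the 105 genes in Surface 1 and for 97 of the 100 in Surface 2. That side was not counted over all tested genes either, so nothing is read from it. Leaving out a Surface library can only loosen the rule, so the number of genes could only rise. The number was more than 1.5 times larger without either Surface library and without Tinaja 2. TMM scaling used all 6 libraries, and the libraries of a population may share fish or preparation.

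**Figure D5:**
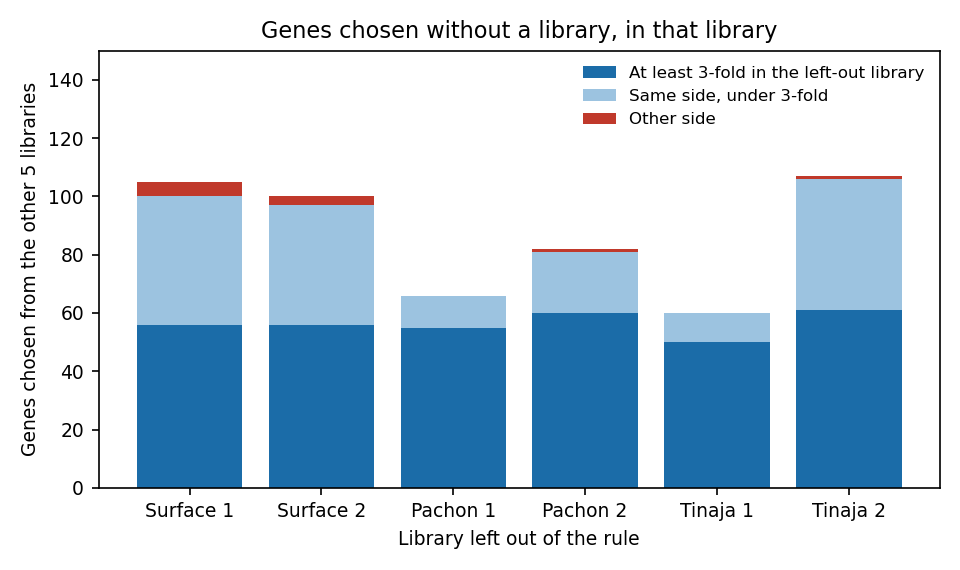
Number of genes chosen by the rule from 5 libraries, with 1 bar for each library left out. Dark blue genes met the 3-fold limit in the left-out library, with at least 2 CPM where that was a cave library. Light blue genes lay on the same side without meeting these limits, and red genes lay on the other side. At most 5 genes, for Surface 1, lay on the other side. The sides were not counted over all tested genes.

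Scaling to total counts instead of TMM left the direction against Surface in place and separated the cave means of some genes. It shifted the median log2 fold change of all tested genes to 0.55 in Pachon, 0.08 in Tinaja and 0.48 for Pachon over Tinaja. Each of the 56 genes still had all 4 cave libraries above both Surface libraries, with a lowest ratio of 2.83. Of the 56, 40 met every condition, 2 fell below the ratio of 3, 3 below 2 CPM, and 11 had cave means 2-fold or more apart. The rule as a whole then found 88 genes. The edgeR test called 6 of the 56 different between the caves with that scaling, against 18.1% of all tested genes.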

How the data were processed

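The data were a table of read counts per Ensembl gene, deposited by the authors with no normalization that the values show: the counts are whole and library totals differ. Per the labels' protocols, RNA was purified with a column kit, and stranded polyA libraries were made. The submitters' processing notes name bcl2fastq 2.20 and STAR, with no version for the latter. The name of the table points to assembly build 2 and Ensembl release 96. The sources used here do not name the read counter, whether it used strand, or how it treated reads with several matches. Values of genes with a near-identical copy, an overlapping neighbour or an antisense partner are uncertain for that reason. No coordinates were used.

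Analyses used R 4.3.3 and edgeR 4.0.16. CPM came from TMM factors on all 27420 genes. For tests, filterByExpr of edgeR (count minimum 10) kept 15282 genes, and TMM factors were computed on these. The model held all 6 libraries and the 3 populations, with 3 residual degrees of freedom. The robust quasi-likelihood F-test was two-sided, with Benjamini-Hochberg adjustment over all genes tested. Standard errors were back-calculated from the F statistic, and intervals from them are approximate. The common biological coefficient of variation was 25.1%. The recovery of planted changes by the fit was checked on simulated counts. All planted changes had the same size, above the 3-fold limit against Surface and the 2-fold limit between the caves. The rule was run on them as well, but no limit was set for its result. The simulated spread was the one fitted to these data, and changes were not planted in genes with very low counts. The check therefore does not cover smaller changes, genes with few Surface reads, or libraries that are technical repeats. Alternatives were DESeq2 1.42.0, other scalings, no filter, a replicate block, other limits of the rule, and each library left out.

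The genes and lists were chosen with earlier results of these data known. The rule for named genes asked for a symbol. Where no symbol could be had, it printed the gene of the group with the highest mean cave CPM. It also printed, among genes of the group with at least 10 Surface reads, the one with the highest ratio of mean cave to mean Surface CPM. Genes given by rank were chosen after their values were seen. The lists of pathway and cell type genes could not be used, since 0 identifiers matched a symbol in a reference table of 52771 genes for a later assembly.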

Additional observations from a re-analysis of the deposited data

Results flagged for a closer look

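The gene at rank 18 was the only one of the 56 whose distance from Surface differed between the caves by the edgeR test. Of all tested genes, 9.22% were called different between the caves. The rule held the cave means of the 56 within 2-fold, so nothing is read from the count of 1. At rank 18 Pachon was higher than Surface by 4.88 ± 0.22 and Tinaja by 4.17 ± 0.21 on the log2 scale (SE). The difference of 0.71 was tested directly (edgeR adjusted p = 0.0483). Both Pachon libraries were above both Tinaja libraries. Over the alternatives the difference ran from 0.65 to 1.2. With all 6 libraries kept, the edgeR adjusted p ran from 0.00918 with total-count scaling to 0.0814 with the replicate block, which ended the call. Leaving out any library also ended it, as given above.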

How the results depend on the processing

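Every alternative fit re-tested the same 56 genes, as chosen on all 6 libraries. The counts called higher than Surface therefore follow from the choice and are printed for scale only. They stayed within 1.5 times of 51 for Pachon, 53 for Tinaja and 54 for the mean of both caves. With all 6 libraries kept, the alternatives called 46 to 55, 47 to 55 and 47 to 55 of the 56. Of all tested genes they called 7% to 25.7%, 6.48% to 10% and 6.38% to 15.3% higher. The count called between the caves was 1, against 6 with total-count scaling (18.1% of all tested genes), 2 without the filter on low counts (8.9%), 2 with DESeq2 (13.5%), 0 with the replicate block (6.83%) and 0 to 3 with 1 library left out (2.19% to 8.46%). The number of genes that met the rule was 88 with total-count scaling, 156 at a ratio of at least 2, 31 at a ratio of at least 4, and 60 to 107 with 1 library left out. For ENSAMXG00000025561 the log2 fold change in Tinaja was 6.37 with total-count scaling (edgeR adjusted p = 0.0504). With 1 library left out it was 4.16 to 7 in Tinaja (6.19 with all libraries), 6.63 to 7.54 in Pachon (7.02), 5.59 to 7.13 for the mean of both caves (6.6) and 0.01 to 2.88 between the caves (0.82). Its calls against Surface were lost without Surface 1 in all 3 comparisons (highest edgeR adjusted p = 0.0726) and without Surface 2 in Tinaja and for the mean. The share of counts taken by the 56 genes was 0.0345% and 0.041% in Surface 1 and 2 and 2.1% and 2.19% in Pachon 1 and 2. Their summed CPM with TMM, written as a percentage, was 0.042%, 0.0454%, 1.74% and 1.64% in the same order. The TMM values are not shares of counts, because TMM rescales the library sizes. The labels give the populations the same replicate numbers, but differences between replicates correlated across genes at only -0.11 to 0.04 between populations, so the numbers were not taken as pairs. With the replicate block 51, 49 and 52 of the 56 were called against Surface in the order above, and 7.11%, 6.52% and 6.6% of all tested genes. Depth limits the 10 genes with 10 or fewer Surface reads.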
